A study of Mus musculus with 48 samples.

Results

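The frontal cortex of sleep-deprived mice that carry the human PER3 repeat was compared between Per3 5/5 mice (labelled Boxhill, 5 repeats) and Per3 4/4 mice (labelled Coach, 4 repeats). The members were the 8 Per3 5/5 and 8 Per3 4/4 cortex arrays, 16 of the 48 arrays of the series, and they were chosen by the genotype and tissue labels alone. In both knock-in lines a mouse Per3 exon is replaced by its human counterpart, which holds the tandem repeat, after a floxed cassette was removed with a ubiquitously expressed Cre that the mice no longer carry. The wild-type mice (WT, 8 cortex arrays) came from the same crosses and carry mouse Per3. All mice were adults on a C57BL/6 background with some contribution from the embryonic stem cell line, were bred within lines from homozygous pairs, and were kept awake for 12 h from light onset in groups of mixed genotype. The sex of these mice was not given in the sources used here, and no mice left to sleep were part of the cortex arrays, so a difference between the genotypes is one present after sleep deprivation.

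PER3 is a period protein of the circadian clock, in which CLOCK and BMAL1 (gene Arntl) bind E-box sequences and drive the Per and Cry genes, whose products feed back on them. The repeat lies in the coding sequence, and in people its length is associated with the response to sleep loss. In cortex, waking is known to raise immediate early genes, endoplasmic reticulum and heat shock chaperones and genes of synaptic and energy metabolism, and these groups were therefore among the lists described here.

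Levels are given as log2 of the array signal relative to the 75th percentile of that array, so that 0 is the 75th percentile and 1 unit is a factor of 2. A difference is always Per3 5/5 minus Per3 4/4. The 75th percentile of the raw signal lay between 693 and 1148 intensity units on 14 knock-in arrays and at 324 and 432 on Per3 4/4 replicates 6 and 7. Arrays of 1 group correlated at 0.958 to 0.991. The scan day was unevenly spread over the genotypes: day 1 held replicates 1 to 4 of both lines, day 2 held Per3 4/4 replicates 5 to 7, and day 3 held Per3 5/5 replicates 5 to 8 and Per3 4/4 replicate 8. Scan day accounted for 68.7% of the spread of the first principal component and genotype for 18.3%. Because the tissue was bulk RNA, fewer cells of a type and less RNA per cell cannot be told apart.

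The Per3 probe (A_51_P258493) did not differ beyond the spread between arrays. It ranged from -2.92 to -2.42 (median -2.83) on the Per3 5/5 arrays and from -3.54 to -2.53 (median -2.97) on the Per3 4/4 arrays, and the ranges overlapped. The means were -2.73 ± 0.197 and -3.02 ± 0.374 (SD, n = 8 each), a difference of 0.28 with an exact two-sided permutation p of 0.0811. With normexp background correction the difference was 0.03 (exact permutation p = 0.731). The level of this probe does not give the number of repeats and so does not check which repeat a mouse carries.

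The libraries labelled Per3 5/5 replicate 2 and Per3 4/4 replicate 2 lay against their labels. At the 38 probes that differed most among the other arrays, the library labelled Per3 5/5 replicate 2 was nearer the Per3 4/4 mean at 32, and the library labelled Per3 4/4 replicate 2 was nearer the Per3 5/5 mean at 31. The hypothalamus arrays of the same 2 mice lay the same way, at 33 of 37 and 30 of 38 of these probes. For each other mouse, probes were chosen without that mouse, its same-numbered partner and the mice numbered 2. The left-out arrays of replicates 3 to 8 were then nearer the other genotype at 0 to 13 of 38 probes in both tissues. Replicate 1 stood between them, with 19 of 38 (Per3 5/5) and 11 of 38 (Per3 4/4) in cortex and 4 and 21 in hypothalamus. The separation was less clean when probes were chosen with the mice numbered 2 kept in, leaving out only the mouse and its partner. Replicates 3 to 8 then stood at 2 to 17 of 38 in cortex and 1 to 26 in hypothalamus, and Per3 5/5 replicate 1 at 30 in cortex and 6 in hypothalamus. The cause was not tested, and no array was given another label. The counts of calls below are therefore given with all arrays and without the mice numbered 2. Leaving them out was decided after the values had been seen, and leaving out arrays that lie against a difference raises the number of calls by construction.

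**Figure D1:**
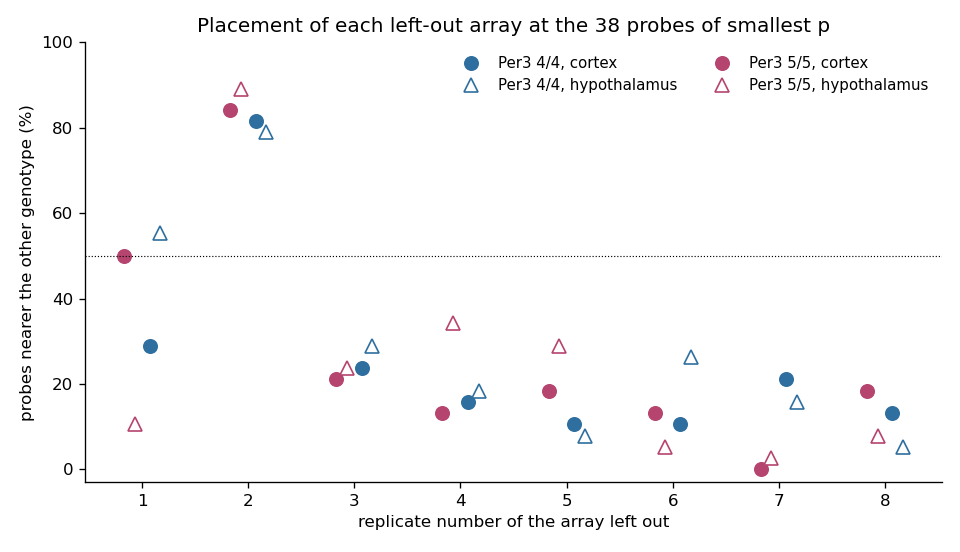
Share of 38 probes (vertical axis, %) at which a left-out array lay nearer the mean of the other knock-in genotype, by replicate number (horizontal axis), for cortex (filled circles) and hypothalamus (open triangles) of Per3 5/5 (red) and Per3 4/4 (blue); probes were chosen without the array's own same-numbered pair and the mice numbered 2. All 4 arrays numbered 2 lie near 80% or above, and replicates 3 to 8 lie below 40%.

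With all arrays as labelled, no probe passed the test of Per3 5/5 against Per3 4/4 cortex. Of 29715 probes tested with limma and Benjamini-Hochberg adjustment, 0 (0% of probes) had an adjusted p under 0.05, and the lowest adjusted p reached was 0.201. Before adjustment, 4656 probes stood under 0.05. Of these, 3234 were higher and 1422 lower in Per3 5/5. That split depended on the scaling: it was 2202 higher and 2175 lower with each array centred on its median, 2586 and 2212 with quantile normalization, and 1204 and 5760 with normexp background correction. The rank product method named in the study's methods ranks fold changes over pairs of arrays and estimates no variance per probe. It called 503 probes at a PFP, its estimate of the share of false predictions, under 0.015. In the limma fit of all arrays, the 95% interval of the difference lay within 1 log2 unit of 0 for 89.5% of probes. It lay within 0.5 log2 units for 64.6%, and the median standard error was 0.123. That fit includes the mice numbered 2, and without them the shares were 88.6% and 60.3%.

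Without the mice numbered 2, 38 of 29715 probes (0.128%) passed the same test. They comprised 14 probes higher (0.0471%) and 24 probes lower (0.0808%) in Per3 5/5, and 30 of them belonged to 27 genes by the gene table used (10 higher, 17 lower). Their differences ranged from 0.41 to 3.04 log2 units in size (median 0.78), and 30 of the 38 were below 1. The largest belonged to A_52_P1131862, a probe without a symbol that was not called with scan day as a block (limma adjusted p = 0.115). Among the called genes with a symbol the largest was that of Ifi47, at -1.87. The fits compared next reuse arrays from which the 38 probes were chosen. Agreement of sign was favoured by that choice and is not a separate check. All 38 had the same sign in the fit of all arrays, where the median size was 0.59. The sign was also the same for all 38 with scan day as a block and on scan day 1 alone. The calls themselves depended on these blocks: with scan day as a block 19 probes were called (0.0639%), all among the 38, and 13 of the 27 genes remained. On scan day 1 alone and with slide as a fixed block 3 probes were called each, of which 1 (Ppp1r16b) and 2 (Ppp1r16b and Zbtb46) were among the 38. The ranges of the genotypes did not overlap at 31 of the 38, against 86 of all probes tested (0.289%). Leaving out any other same-numbered pair of knock-in mice gave 0 calls, and leaving out only the library labelled Per3 5/5 replicate 2 or only the library labelled Per3 4/4 replicate 2 gave 9 calls each. The genes of this fit that are named below were therefore chosen after their values had been seen.

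The called genes gathered on chromosome 4, which also carries Per3. Of the 27 genes, 10 lay there among 946 genes tested (1.06%), 6 among 1247 on chromosome 2 (0.48%) and 4 among 1260 on chromosome 11 (0.32%). Of the 10, 8 lay within a stretch of neighbours, and all 8 were lower in Per3 5/5. The stretch ran from 2510039O18Rik, 49 protein-coding genes from Per3, to Disp3, 38 genes from Per3, its ends being set by called genes. With scan day as a block all of these 8 genes but Disp3 remained called.

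Mad2l2, which encodes the REV7 subunit of DNA polymerase zeta and of the shieldin complex of DNA repair, had the smallest p. Its level ran from 1.01 to 1.26 (median 1.17) on the other 7 Per3 5/5 arrays and from 1.77 to 2.33 (median 1.95) on the other 7 Per3 4/4 arrays. These ranges did not overlap, and WT lay between 0.94 and 1.60. The library labelled Per3 5/5 replicate 2 stood at 1.73 and the library labelled Per3 4/4 replicate 2 at 1.19. The difference was -0.83 ± 0.0985 (SE; limma adjusted p = 0.000845) without these 2 and -0.66 ± 0.13 (limma adjusted p = 0.201) with all arrays.

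Fbxo6, Fbxo44 and Fbxo2, which lie next to Mad2l2 in that order, encode F-box proteins, the substrate-binding subunits of SCF ubiquitin ligases. Fbxo44 (A_51_P505943) ran from -0.04 to 0.96 (median 0.67) on the other 7 Per3 5/5 arrays and from 1.39 to 1.78 (median 1.47) on the other 7 Per3 4/4 arrays, with replicate 2 at 1.36 and 0.95. The Per3 5/5 arrays were lower with no overlap, and the WT arrays, at 0.18 to 0.74, lay at the Per3 5/5 level. The differences were -1.03 ± 0.14 for Fbxo44, -0.87 ± 0.119 for Fbxo2 (A_52_P36190) and -0.73 ± 0.124 for Fbxo6 (A_51_P228846). The second probe of each was also called, with differences of -1.07 (Fbxo44), -0.74 (Fbxo2) and -0.98 (Fbxo6).

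**Figure D2:**
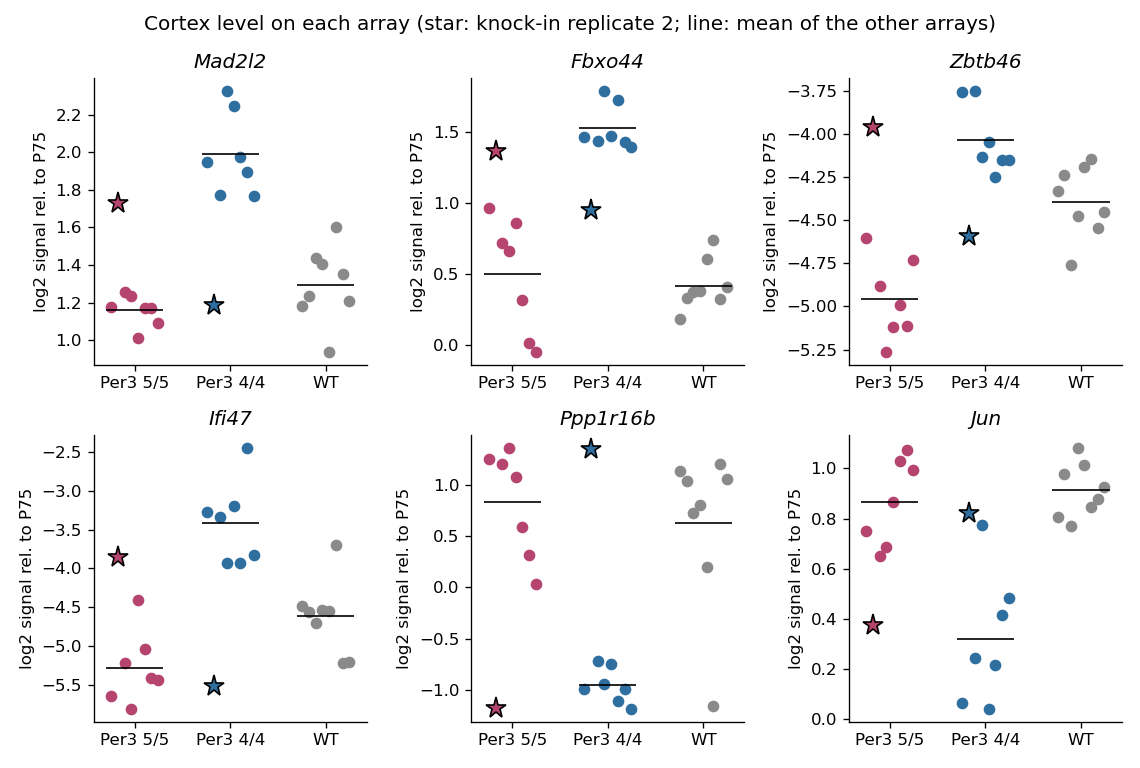
Level (vertical axes, log2 signal relative to the 75th percentile) of 6 called genes on each cortex array of Per3 5/5 (red), Per3 4/4 (blue) and WT (grey). Stars mark the knock-in arrays numbered 2 and lines the mean of the other arrays of a group; each star lies toward the other knock-in genotype, and for Ppp1r16b the Per3 5/5 star stands at -1.18 and the Per3 4/4 star at 1.35.

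Other called genes of the stretch had similar differences. Clcn6, a chloride and proton exchanger of endosomes, was lower by -0.94 ± 0.149, with arrays from -2.05 to -1.07 in Per3 5/5, against -0.92 to -0.24 in Per3 4/4. The difference was -0.59 ± 0.106 for 2510039O18Rik. Disp3, a membrane protein related to the Hedgehog receptor family, differed by -0.68 ± 0.117. Among their neighbours, Agtrap, which binds the angiotensin receptor, had a difference of -0.71 (limma adjusted p = 0.0579), and the collagen-modifying enzyme Plod1 one of -0.88 (limma adjusted p = 0.156). The natriuretic peptide genes Nppa and Nppb had differences of -0.59 and 0.26 that did not pass the test, and Draxin, an axon guidance gene within the stretch, had one of 0.01. Between Disp3 and Per3 no gene was called, and the differences of those tested ran from -0.69 at Cort to 0.51 at Rbp7.

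**Figure D3:**
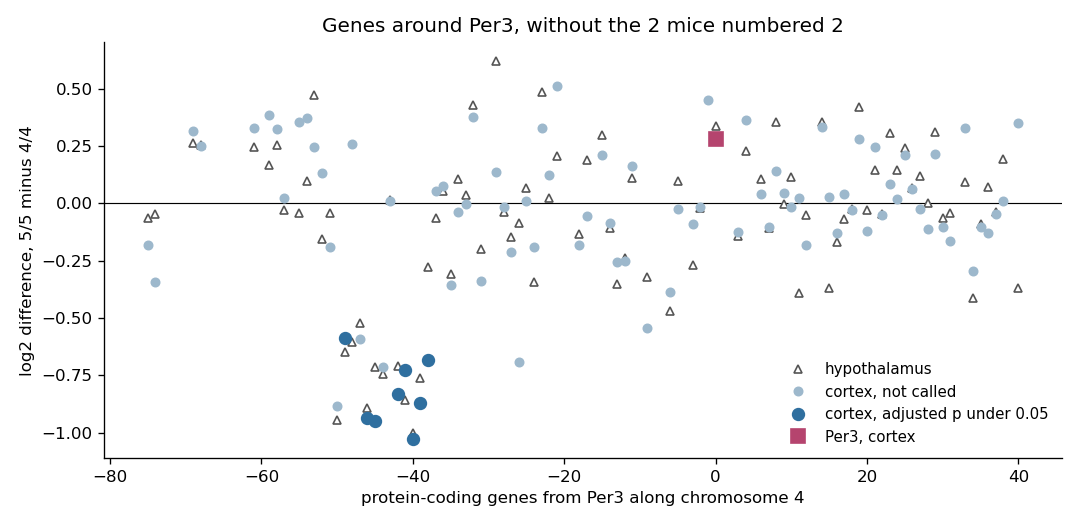
Difference of Per3 5/5 from Per3 4/4 (vertical axis, log2) of the genes tested around Per3 on chromosome 4, by their place in the gene order (horizontal axis, protein-coding genes from Per3), without the mice numbered 2. Filled dark circles are called in cortex and all lie between 49 and 38 genes from Per3; light circles were not called, triangles are the hypothalamus values and the square is Per3 at 0.28.

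Clock proteins bind the E-box CACGTG, so the 250 bases before each gene start (RefSeq, GRCm38.p6) were searched for it; the motif reads the same on both strands. It was found in 1139 of 12233 tested genes with such a window (9.31%) and in 2 of 23 called genes with one, Clcn6 and Pak3. The windows that hold it are shown because they are the only matches among the called genes, with the motif in capitals. The Clcn6 window lies at chr4:148038832-148038861 on the minus strand and holds 2 matches, and the Pak3 window at chrX:143518493-143518522 on the plus strand.
Clcn6: CACGTGaccctcccggggccagtCACGTGa
Pak3: ggccatggggtgCACGTGagcccacactcc
The first Clcn6 match begins 48 bases before the start and the Pak3 match 86 bases before it. A match in these letters is not a binding site, and the other called genes of the stretch with a window had none.

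Jun and Mutyh, on chromosome 4 outside the stretch, were higher in Per3 5/5. Jun, an immediate early gene and subunit of the AP-1 transcription factor, ran from 0.65 to 1.07 (median 0.87) on the other 7 Per3 5/5 arrays and from 0.04 to 0.78 (median 0.25) on the other 7 Per3 4/4 arrays, with WT at 0.77 to 1.08. Among these, 1 Per3 4/4 array reached the Per3 5/5 range. The difference was 0.54 ± 0.102 (limma adjusted p = 0.0286), and 0.42 ± 0.113 (limma adjusted p = 0.282) with all arrays. Once scan day was blocked, Jun no longer passed (0.50, limma adjusted p = 0.14). Mutyh, a DNA glycosylase that removes mispaired adenine, differed by 0.61 ± 0.116.

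On chromosome 2, Zbtb46, a transcription factor gene of dendritic cells, ran from -5.26 to -4.60 in Per3 5/5, against -4.25 to -3.75 in Per3 4/4 without the mice numbered 2, a difference of -0.92 ± 0.115 with no overlap. Ppdpf (-0.69), Ndrg3 (-0.65) and Itpka (-0.46), a kinase of inositol trisphosphate in dendritic spines, were also lower, and Slx4ip (0.41) was higher. Ppp1r16b, a regulatory subunit of protein phosphatase 1, was higher by 1.78 ± 0.288 at probe A_51_P155294. That probe fell into separate levels, 0.03 to 1.35 in Per3 5/5 and -1.18 to -0.72 in Per3 4/4, and 1 WT array stood at -1.15 while the rest of WT lay above 0. The other probes of Ppp1r16b had differences of -0.02 (A_52_P304105) and -0.04 (A_52_P449974), so the probes of this gene disagreed.

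On chromosome 11, Ifi47 and Tgtp1, which encode interferon-inducible GTPases, were lower in Per3 5/5. Ifi47 ran from -5.81 to -4.41 (median -5.42) on the other 7 Per3 5/5 arrays and from -3.93 to -2.45 (median -3.33) on the other 7 Per3 4/4 arrays, with replicate 2 at -3.85 and -5.52. The groups did not overlap, and WT spanned -5.22 to -3.70. The difference was -1.87 ± 0.25, and -1.43 ± 0.332 (limma adjusted p = 0.245) with all arrays. Tgtp1 differed by -1.19 ± 0.225. Thg1l, which adds a guanine to histidine tRNA, was lower by -0.62 ± 0.104, and Cuedc1 was higher by 0.62 ± 0.118.

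The remaining called genes were spread over other chromosomes. Gbf1, an exchange factor of the Golgi, differed by 0.47, Pak3, a kinase of dendritic spines, by 0.61, and the zinc finger genes Zfp612 and Zfp781 by 0.51 and 0.46. Erich5 was higher by 0.85, but its sign reversed with normexp background correction. Its probe was dim: the Per3 5/5 group reached the detection limit of 6 arrays used for testing, and the Per3 4/4 group did not. The size of the Erich5 difference is therefore uncertain. Stx4a, a syntaxin of the plasma membrane, was lower by -0.42. Dct, an enzyme of melanin synthesis, was lower by -1.71 ± 0.325, with Per3 5/5 arrays from -3.44 to -1.36 and Per3 4/4 arrays from -2.01 to -0.11, and these ranges overlapped. Pmel, a melanosome protein, had a difference of -0.75 (limma adjusted p = 0.066). The 8 called probes without a symbol included A_52_P395228, A_51_P113395 and A_51_P113399, which were higher by 0.90, 0.82 and 0.74.

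Some of the smallest p-values in the fit of all arrays belonged to genes at which the mice numbered 2 lay with their labels. At 11 of 29715 probes (0.037%) the 8 Per3 5/5 and 8 Per3 4/4 arrays did not overlap. Pcdhga4, a gamma protocadherin of neuronal surfaces, ran from -4.72 to -3.59 in Per3 5/5, against -5.53 to -4.90 in Per3 4/4, a difference of 0.88 ± 0.17. Rb1cc1, which starts autophagosome formation, ran from 1.64 to 2.13 and from 1.31 to 1.60, a difference of 0.40 ± 0.082. Dclre1c, the nuclease Artemis of DNA repair, differed by 0.47 ± 0.10. None of the 3 passed the test with all arrays (limma adjusted p = 0.201, 0.201 and 0.245) or without the mice numbered 2 (limma adjusted p = 0.0601, 0.066 and 0.0901). Other genes with small p in the fit of all arrays were the spliceosome helicase gene Ddx23 (0.56), the RNA-binding protein gene Rbm27 (0.44), Bbs7 of the ciliary BBSome (0.52) and Wdr11 (0.36), all above 0, and Lyplal1 (-0.55), below 0.

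The largest differences among probes with unadjusted p under 0.05 came from probes with a wide spread. Slx1b (A_51_P335104), a subunit of a structure-specific endonuclease, ran from -4.01 to 1.11 in Per3 5/5, against -4.75 to 0.70 in Per3 4/4, a difference of 2.02 ± 0.82, whereas its other probe A_51_P113773 had a difference of -0.08. Grn (A_52_P508750), which encodes progranulin, ran from 1.83 to 5.91 and from 1.91 to 7.22, a difference of -2.15 ± 0.86, while its other probe A_51_P192800 had one of -0.22. Syt10, a synaptotagmin, differed by -2.09 ± 0.90. The liver plasma protein genes Mup1 and Ahsg differed by -1.71 and -1.50, and the pituitary hormone gene Cga by 1.03, with 1 Per3 5/5 array at -0.75 and the next at -4.21. All of these ranges overlapped, and none passed the test.

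A few highly variable probes rested on 1 array. Rps27a stood at -1.84 on Per3 4/4 replicate 3 and at 5.63 or more on the other Per3 4/4 arrays. Psma2 and Emc4 stood at -2.06 and -2.13 on Per3 5/5 replicate 1, with the next arrays at 4.94 and 4.86. Grb14 stood at -4.87 on Per3 4/4 replicate 1. Pttg1, the securin gene, and Ccl21a, a chemokine gene, had several arrays at each of separate levels in Per3 4/4, and their library labelled Per3 5/5 replicate 2 stood apart from its group at 2.995 and 1.38. The unnamed probe A_51_P111655, chosen after its values were seen, stood at -7.77 or below or at 0.37 or above on the Per3 5/5 arrays, and the Per3 4/4 arrays lay at -0.63 or above except the library labelled replicate 2 at -8.41.

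No member of a function list passed the adjusted test with all arrays. Over the 15398 genes tested, 1021 (6.63%) were higher and 774 (5.03%) lower in Per3 5/5 at an unadjusted p under 0.05, with a median difference of 0.00; without the mice numbered 2 these shares were 7.37% and 6.81%, and with scan day as a block 3.84% and 3.33%. The counts below are therefore of unadjusted p under 0.05 with all arrays, unless another setting is named, and are to be read against these shares. Many of them were lower with scan day as a block.

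**Figure D4:**
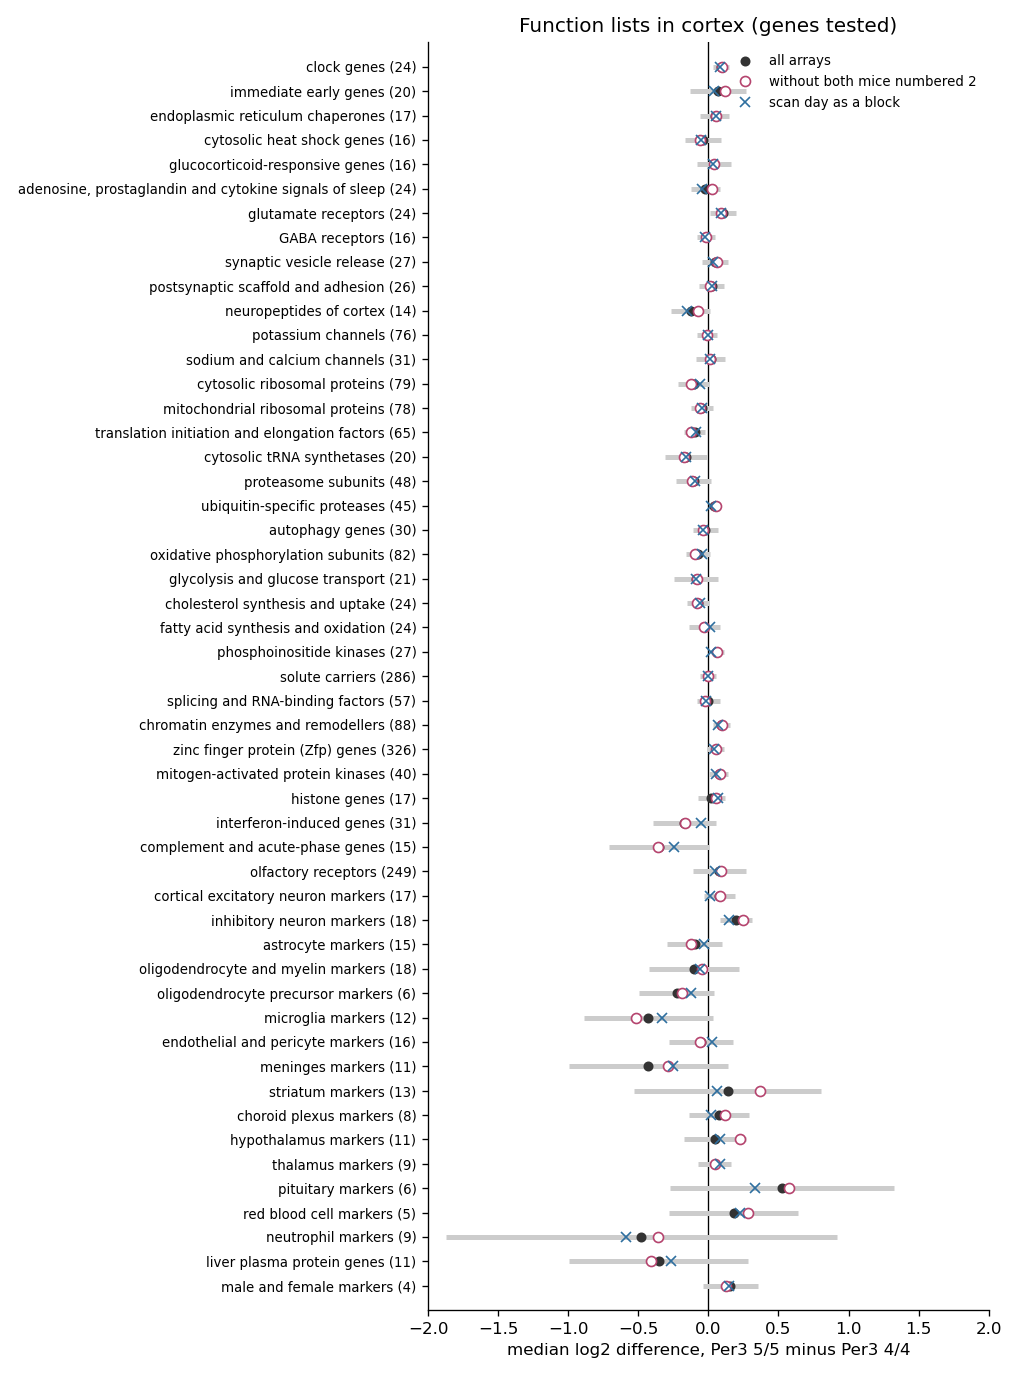
Median difference of Per3 5/5 from Per3 4/4 (horizontal axis, log2) of the members of each function list in cortex, with all arrays (filled circles), without the mice numbered 2 (open circles) and with scan day as a block (crosses). Grey bars are 1 SD between arrays of the list's median level, and the vertical line is the median of all genes tested; numbers in brackets are genes tested.

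Of 24 clock genes, 1 was higher and 0 lower, with a median difference of 0.09. That gene was Csnk1e, a kinase that phosphorylates period proteins (0.21, unadjusted p = 0.0349), and with scan day as a block 0 passed. Arntl and Cry1 had differences of -0.21 each with unadjusted p of 0.0648 and 0.0984. Of 20 immediate early genes, 1 was higher, which was Jun. Of 17 endoplasmic reticulum chaperone genes, 2 were higher (Hyou1 at 0.30 and Pdia4 at 0.26) and 2 lower (the stress transcription factor Atf4 at -0.49 and the disulfide isomerase P4hb at -0.25). On scan day 1 alone Hyou1 and Pdia4 reversed their sign. The heat shock list (16 genes) held Hspa8 at -0.18 as its 1 gene past the threshold, and the glucocorticoid list (16 genes) held Fkbp5 at 0.41. Among 24 genes of adenosine, prostaglandin and cytokine signals, 2 were higher and 4 lower, with the adenosine receptor Adora2b at -0.35, and 0 and 1 with scan day as a block. The Homer1 probes A_51_P387159, A_51_P387160 and A_52_P151211, for a postsynaptic scaffold gene that marks sleep need, had differences of 0.27, 0.20 and 0.03, none past the adjusted test.

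Of 24 glutamate receptor genes, 5 were higher and 0 lower, with a median of 0.11. The number higher was 3 without the mice numbered 2, 3 with scan day as a block, 2 with both and 0 on scan day 1. They included Gria4, an AMPA receptor subunit, at 0.44, and Grin2a, an NMDA receptor subunit, at 0.40. Grin2a ran from -0.51 to 0.13 in Per3 5/5, against -1.01 to -0.26 in Per3 4/4. Synaptic vesicle release genes (27 tested) had 3 higher, among them Rims1 of the active zone at 0.39 and Syt4 at 0.36. Of 16 GABA receptor genes, 2 were higher (Gabrb2 at 0.25) and 1 lower (Gabre at -0.55), and of 26 postsynaptic scaffold and adhesion genes, 1 was higher (Nlgn3 at 0.26) and 2 lower (Dlgap4 at -0.17). Of 14 neuropeptide genes, 1 was lower, the cortistatin gene Cort at -0.57, which lies 26 genes from Per3. Crhbp, which binds corticotropin-releasing hormone, had a difference of -0.52. Of 76 potassium channel genes 2 were higher (Kcna2 at 0.33) and 1 lower, and of 31 sodium and calcium channel genes 2 were higher (Cacna1d at 0.27).

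Of 79 cytosolic ribosomal protein genes, 0 were higher and 18 lower with all arrays, and 26 were lower without the mice numbered 2. With scan day as a block 6 were lower. Rps4x ran from 5.67 to 5.88 in Per3 5/5, against 5.78 to 6.18 in Per3 4/4, a difference of -0.23, and Rpl4 differed by -0.27. Of 20 cytosolic tRNA synthetase genes, 6 were lower, including Dars (-0.27) and Gars (-0.43). Without the mice numbered 2, 10 were lower, and 8 with scan day as a block. Translation factors (65 tested) had 3 higher and 9 lower, with the elongation factor Eef2 at -0.37, the initiation factor Eif2s1 at -0.34 and the translation repressor Eif4ebp2 at 0.25. Proteasome subunit genes (48 tested) had 0 higher and 8 lower, with Psma3 at -0.35 and Psma7 at -0.18, and 13 lower without the mice numbered 2. The medians of these 4 lists were -0.10, -0.16, -0.10 and -0.11, beside SDs between arrays of 0.11, 0.15, 0.08 and 0.12. On scan day 1 alone 0 members of these 4 lists had an unadjusted p under 0.05. Of all 15398 genes tested, 182 were higher and 73 lower on that day. Mitochondrial ribosomal proteins (78 tested) had 2 lower, among them Mrps26 at -0.19, and of 45 ubiquitin-specific protease genes 5 were higher (Usp28 at 0.30, Usp14 at 0.28) and 1 lower, and 2 and 1 with scan day as a block. Of 30 autophagy genes, 2 were higher and 1 lower.

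In energy and lipid metabolism, 11 of 82 oxidative phosphorylation genes were lower and 0 higher, with a median of -0.07. Atp5b, the beta subunit of ATP synthase, ran from 6.50 to 7.46 in Per3 5/5, against 6.94 to 7.60 in Per3 4/4, a difference of -0.37, and Sdhb of complex II differed by -0.26. That count was 7 once scan day was blocked, 15 without the mice numbered 2 and 0 on scan day 1 alone. Of 21 glycolysis and glucose transport genes 3 were lower, with Aldoa at -0.24 and Ldhb at -0.17, and 0 with scan day as a block. Of 24 cholesterol genes 2 were higher and 3 lower (the synthesis enzyme gene Cyp51 at -0.45). Of 24 fatty acid genes 2 were higher (Acly at 0.22) and 1 lower, and of 27 phosphoinositide kinase genes 3 were higher (Pik3r1 at 0.39) and 1 lower. Solute carriers (286 tested) split into 17 higher and 18 lower, and 8 and 10 with scan day as a block.

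Of 88 chromatin genes, 18 were higher and 0 lower, with a median of 0.09, and 13 were higher and 1 lower with scan day as a block. With each array centred on its median the counts were 9 higher and 2 lower, and with normexp background correction 11 and 5. Kdm5b, a histone H3 demethylase, ran from -0.10 to 0.16 in Per3 5/5, against -0.49 to -0.03 in Per3 4/4, a difference of 0.27. Sirt4, a mitochondrial sirtuin that was counted in this list, differed by 0.49. Zfp genes (326 tested) had 32 higher and 6 lower, with Zfp955b at 0.28 and Zfp599 at 0.48, but 14 higher and 37 lower with normexp background correction. Of 40 mitogen-activated protein kinase genes, 7 were higher and 0 lower with all arrays, 8 and 0 without the mice numbered 2, 2 and 0 with scan day as a block, 3 and 0 with median centring and 4 and 2 with normexp background correction. They included Mapk6 at 0.28 and Map3k20 at 1.09, the latter reversing its sign with normexp background correction. Splicing genes (57 tested) had 3 higher (Srsf4 at 0.23) and 3 lower (Snrpc at -0.31), and histone genes (17 tested) had 1 higher and 2 lower.

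Markers of microglia and of the meninges had medians below 0, beside SDs between arrays of 0.46 and 0.57. Medians were also below 0 for neutrophil markers (-0.48), liver plasma protein genes (-0.355), complement and acute-phase genes (-0.35) and oligodendrocyte precursor markers (-0.23). Other lists had medians above 0, such as pituitary markers (0.52) and inhibitory neuron markers (0.20). Of 12 microglia markers, 6 were lower and 0 higher with all arrays, 8 were lower without the mice numbered 2, and 1 was lower with scan day as a block, with medians of -0.43, -0.52 and -0.33. Aif1, which encodes IBA1, ran from 0.95 to 1.62 in Per3 5/5, against 1.25 to 2.07 in Per3 4/4, a difference of -0.37, and Tyrobp differed by -0.53. Of 11 meninges markers 3 were lower, with the matrix genes Lum at -0.72 and Dcn at -0.55. That number was 1 without the mice numbered 2, 1 with scan day as a block and 0 with both, where the median was -0.05 against -0.43 with all arrays. Of 15 complement and acute-phase genes 1 was lower, C1qa at -0.66, which is also a microglia marker. The median level of the 12 microglia markers, each relative to its mean over the knock-in arrays, ran from -1.13 to 0.53 (median -0.15) in Per3 5/5 and from -0.19 to 0.65 (median 0.24) in Per3 4/4, with overlap. The part of these cells in the gene differences above was not tested. Of 31 interferon-induced genes, 1 was higher (Stat2 at 0.21) and 3 lower, Ifi47 among them and Gbp7 at -0.30.

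Few markers of neurons and other glia passed the unadjusted threshold. Of 18 inhibitory neuron markers 3 were higher, with Gad1, the GABA-synthesizing enzyme, at 0.23 and Nos1 at 0.26, the latter reversing with normexp background correction. With scan day as a block 0 were higher, and with median centring 1. Without the mice numbered 2, 4 were higher and 1 lower, and 3 and 0 with scan day also blocked. The differences of the 18 markers ran from -0.35 to 0.31, with Slc32a1 and Calb2 among those below 0. Of 17 excitatory neuron markers 2 were higher, with Tbr1 at 0.25, and 0 with scan day as a block. Slc17a7 and Lamp5 of that list were below 0. No astrocyte marker (15 tested) or myelin marker (18 tested) had an unadjusted p under 0.05, and Gfap and Mbp had differences of -0.49 and -0.27. Of 16 endothelial and pericyte markers 2 were lower, with Vtn at -0.51, whereas Cdh5 and Flt1 were above 0. The median of that list was -0.05 with all arrays and 0.03 with scan day as a block. On scan day 1 alone it was 0.17, with 3 higher and 1 lower. Striatum markers (13 tested), which would mark a dissection that reached below the cortex, had 0 past the threshold and a median of 0.14 with an SD between arrays of 0.67.

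The called probes were looked up in the hypothalamus arrays of the same mice. There, 0 of 30735 probes were called with all arrays and 43 (0.14%) without the mice numbered 2. All 38 cortex probes had the same sign in hypothalamus, 31 had an unadjusted p under 0.05 and 19 were called. In that fit 6238 of all 30735 probes (20.3%) had an unadjusted p under 0.05. Both tissues came from the same mice with the same 2 left out, so the hypothalamus is not an independent test. In hypothalamus, Mad2l2 differed by -0.71, Fbxo44 by -0.999, Ifi47 by -1.78 and Ppp1r16b by 1.43. Dct, by contrast, had a hypothalamus difference of -0.14 (limma adjusted p = 0.606).

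**Figure D5:**
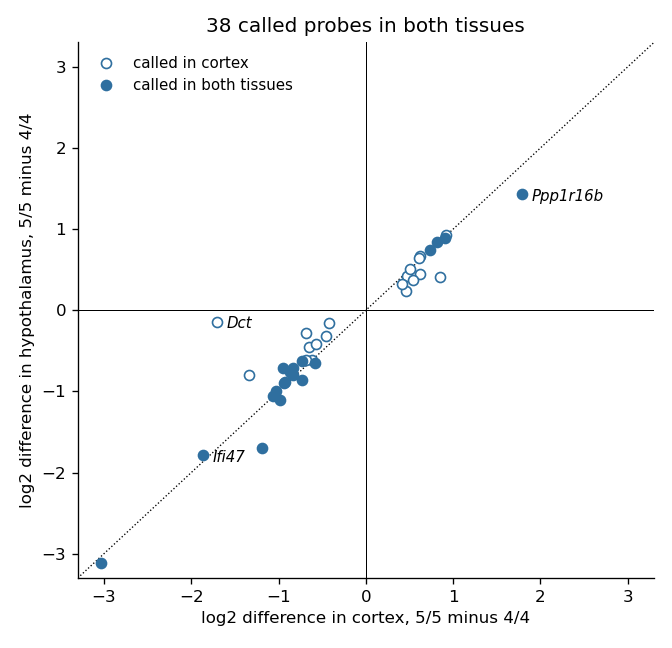
Difference of Per3 5/5 from Per3 4/4 (log2) of the 38 probes called in cortex, in cortex (horizontal axis) and hypothalamus (vertical axis), without the mice numbered 2. Filled points were called in both tissues, and the dotted line marks equal differences; Dct lies apart at -1.71 in cortex and -0.14 in hypothalamus.

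The test of the difference between the tissues found none. Of 29222 probes, 0 (0%) were called for genotype by tissue with limma, with all arrays or without the mice numbered 2. With all arrays 1063 probes (3.64%) had an unadjusted p under 0.05. At 722 of them the Per3 5/5 minus Per3 4/4 difference was more positive in cortex than in hypothalamus, and at 341 more negative. Values in brackets below are the cortex difference minus the hypothalamus difference. The smallest p-values in the more positive direction belonged to Wnt16, a signalling ligand (1.12), Dscaml1, an adhesion molecule (1.34), Urah (0.66) and Tas2r140. The cortex difference of Tas2r140, a taste receptor gene, reversed its sign with scan day as a block. Those in the more negative direction belonged to Npas4, an activity-dependent transcription factor (-0.94), Nudt3 (-0.26), Atf5 (-0.45) and Dct (-1.30).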

How the data were processed

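Total RNA of frontal cortex and hypothalamus was labelled with Cy3 and hybridized to 1-colour Agilent whole mouse genome arrays. The deposited scanner files hold spot intensity values that the authors extracted with Agilent Feature Extraction (version 10.7.1.1 per the file headers), with background already subtracted. The authors' series table is in log2 units, shifted by the authors to the 75th percentile and, per probe, centred on the median: 99.97% of its cortex values lay within 0.05 of the same values rebuilt from the scanner files. It was used as an alternative. No array had a saturated spot, and the number of arrays limits the precision.

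Log2 processed signal minus its 75th percentile was averaged over spots of a probe, leaving out control spots and outlier flags. A probe was tested where at least 6 of the 8 arrays in a group measured it well above background, with limma 3.58.1 (R 4.3.3) over the 24 cortex arrays, with Benjamini-Hochberg adjustment and calls at an adjusted p under 0.05. Groups came from the labels, and 27668 of 41174 probes (67.2%) matched a symbol through their RefSeq accession. In the function lists and in the counts over all genes tested, a gene is represented by its tested probe of highest mean signal in cortex. For the genes named by smallest p or largest difference, the probe of smallest p was used. The genes named are Per3 and Homer1, the 12 of smallest p and 6 of largest difference in each direction, 2 in each direction per list, the 8 most variable, and 4 in each direction for genotype by tissue; genes called without the mice numbered 2 were added after their values were seen. Some genes that these rules chose are not reported here. The members and lists were chosen with earlier results of these data known. The fits were tested on simulated data. Other scalings, filters, blocks, rank products (re-implemented here in Python 3.11.15) and left-out arrays were tried. Replicates 1 to 4 of both knock-in lines shared a slide with their same-numbered partner. The deviations of same-numbered arrays correlated between -0.093 and 0.456, with 3 of 8 pairs under 0.1, so the numbers were not taken to pair the arrays and the replicate block was an alternative. Separate mice of 1 line were bred in-house, so the p-values measure the spread between mice of these lines.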

Additional observations from a re-analysis of the deposited data

Results flagged for a closer look

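Of 284 groups of 8 cortex arrays (142 named probes in each knock-in genotype), 27 held an array far from the rest by Dixon's criterion, and 12 of the 27 were arrays numbered 2. Chance gives about 1 in 20 groups, but that rate does not apply here: 10 of these 12 were at probes named because they were called without the mice numbered 2, a choice that favours arrays numbered 2 standing apart. The library labelled Per3 5/5 replicate 2 stood apart at probe A_51_P113395 (log2 level -1.33), A_51_P113399 (-1.43), A_52_P395228 (0.691), Ccl21a (1.38), Mad2l2 (1.73), Thg1l (-3.85), Pttg1 (2.995) and Cuedc1 (-2.93). The library labelled Per3 4/4 replicate 2 stood apart at Ppp1r16b (1.35), Ppdpf (4.34), Fbxo44 (0.947) and A_52_P1131862 (-6.49).

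Among the other Per3 5/5 arrays, replicate 1 stood apart at Emc4 (-2.13) and Psma2 (-2.06), replicate 3 at Slx1b (-4.01), replicate 5 at Dct (-1.36) and Cga (-0.747), replicate 6 at Fkbp5 (-1.26) and Map3k20 (-3.76), replicate 7 at Dars (-0.386) and replicate 8 at Gria4 (2.26). Among the other Per3 4/4 arrays, replicate 1 stood apart at Grb14 (-4.87), replicate 3 at Rps27a (-1.84), replicate 5 at Syt4 (1.59), replicate 7 at Wnt16 (-4.09) and replicate 8 at Cacna1d (-1.45) and Grn (1.91).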

How the results depend on the processing

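The count of called probes with all arrays was 0 under every scaling, filter and block tried and with the methods' t-test after Benjamini-Hochberg adjustment. Exceptions were the rank product (503 probes), the library labelled Per3 5/5 replicate 2 or that labelled Per3 4/4 replicate 2 left out (9 each; leaving out 1 array at a time gave 0 to 9) and both left out (38). Without both, chosen after seeing the data, the count was 19 with scan day as a block, 3 on scan day 1 or with slide as a fixed block, 24 with slide as a random block or with no filter, 25 with the knock-in arrays only and 254 with the rank product. Leaving out 1 further array gave 19 (without Per3 5/5 replicate 7) to 134 (without Per3 5/5 replicate 1), and 23 without Per3 5/5 replicate 6. With the replicate block the count was 0 with all arrays and 26 without the mice numbered 2. Genotype by tissue gave 0 calls under all settings tried.

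List medians that moved by more than the spread between arrays were those of clock genes (0.0333 with normexp, -0.00489 on scan day 1), sleep signals (-0.200 with normexp), ubiquitin-specific proteases (-0.0106 with median centring, -0.00363 with normexp), phosphoinositide kinases (0.00932 with median centring, 0.0155 with the scan day block, 0.00616 on scan day 1), solute carriers (-0.0700), Zfp genes (-0.0180) and olfactory receptors (-0.267), each with normexp, and inhibitory neuron markers (0.0435 with normexp, 0.0651 on scan day 1). The median of all genes was -0.0567 with median centring and -0.0591 with normexp.

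Of 142 named probes, 129 kept their sign under the 32 settings. Normexp reversed Nos1 (-0.14), Erich5 (-0.16), Dscaml1 (-0.21), Map3k20 (-0.14) and Wnt16 (-0.13). Scan day 1 and slide as a fixed block reversed Pdia4 (-0.00511), Nlgn3 (-0.00176), Hyou1 (-0.0246), Pttg1 (0.0570; 0.0378 with a scan day block of 16 arrays) and the Homer1 probe A_52_P151211 (-0.0711; -0.0205 with median centring, and -0.00653 to 0.0760 when 1 array was left out, lowest without Per3 5/5 replicate 8). Tas2r140 reversed with scan day as a block (0.10 over 24 arrays, 0.12 over 16), on scan day 1 and with slide fixed (0.13 each) and without Per3 4/4 replicate 1 (0.00491). With 1 array left out Rps27a lay between -0.0664 (without Per3 4/4 replicate 3) and 1.08, and Grb14 between -0.00479 (without Per3 4/4 replicate 1) and 1.05. These causes were not tested. Signal over background limits dim probes: Erich5 was well above background on 7 Per3 5/5 and 4 Per3 4/4 arrays.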
